A study of Mus musculus with 75 samples.

Results

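Hes1, Hes5, Hes6, Hey1, Hey2 and Heyl, basic helix-loop-helix repressors of the Hes and Hey families, were examined as a readout of Notch activity against the level of Atoh1. These 6 members were chosen by name and are 6 of the 55291 genes of the count table. All 6 passed a filter on low counts that kept 11443 genes, but each passed through the groups in which it was high, so that passing says nothing about them.

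The study asked how far cells regenerated from adult cochlear supporting cells (SCs) resemble outer hair cells (OHCs), the electromotile sensory cells of the cochlea, and measured single-cell RNA-Seq in 75 hand-picked Tdtomato+ cells of C57BL/6 mice. The 17 WT_P30 OHCs were collected at P30 from Slc26a5 CreER/+; Ai9/+ mice, whose Cre works in OHCs, after tamoxifen at P20 and P21. The 16 WT_P60 SCs were collected at P60 from Fgfr3-iCreER+; Ai9/+ mice, whose Cre works in adult SCs, mostly pillar and Deiters cells, after tamoxifen at P30 and P31. The 42 induced cells were collected at P60 from Fgfr3-Atoh1-Ikzf2-DTR mice, which carry the same Fgfr3-iCreER+ driver, the CAG-LSL-Atoh1+ transgene, the Rosa26 CAG-LSL-Ikzf2/+ allele with its Tdtomato and the Slc26a5 DTR/+ allele. Their SCs began to express Atoh1 and Ikzf2 after tamoxifen on the same days, and diphtheria toxin at 20 ng/g on P36 killed the OHCs. By reads of Myo7a and Slc26a5 (Prestin), the authors sorted the induced cells into 11 OHC-like cells, 16 nascent hair cells (HCs) and 15 cells they called SCs failing to become HCs (failing SCs in what follows). The age, the driver line and the toxin therefore differ between some groups along with the cell type. The labels tie no cell to an animal, so that each group counts as 1 sample: no difference below was tested, no p-value is given, and every SD is a spread over cells.

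Notch is a receptor that is cut when a ligand on a neighboring cell binds it. The freed intracellular part enters the nucleus, joins the DNA-binding protein Rbpj and turns on genes of the Hes and Hey families, whose products repress Atoh1 and other hair cell genes. In the developing organ of Corti this lateral inhibition holds the neighbors of a hair cell in the SC fate. Hes6 is the odd member, since it is known as a target of proneural factors such as Atoh1 and as an antagonist of Hes1.

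Cells of the 5 groups were not equally deep. Per cell, between 4264780 and 22934062 reads were counted on genes, with group medians of 5967735 in WT_P30 OHCs, 7032279 in WT_P60 SCs, 9209094 in OHC-like cells, 11377685 in nascent HCs and 6985617 in failing SCs. Levels are CPM (read counts scaled to 1000000 per cell) with library sizes scaled by TMM, and detection means 1 CPM or more of the unscaled total. The number of genes detected ranged from 3630 to 5431 in WT_P30 OHCs and from 5542 to 7743 in WT_P60 SCs. The cells with the fewest genes among the induced cells were OHC-like cell 4 with 3348, and cells 2 and 4 of the failing SCs with 4859 and 4262. Levels and ratios of the members that they move by over 1.5 times are given with and without them. By the labels' library numbers, the WT_P60 SCs stand apart, and the WT_P30 OHCs come just after the last induced cells. Each wild-type group was treated as a series of its own, which cannot be told apart from the group. The induced cells were placed in 5 series, here A to E. The numbers of A to D follow on from each other with no gap between series, so that they do not give the cuts. All values within series below rest on this assignment. Whether a series was a separate preparation is not stated.

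Markers matched the labels of the wild-type cells. The 5 OHC markers (Slc26a5, Ocm, Myo7a, Espn and Tmc1) summed to between 11794 and 43785 CPM in the WT_P30 OHCs and to at most 0.31 CPM in the WT_P60 SCs. The 6 SC markers (Sox2, Sox10, Sox9, Fgfr3, Bace2 and Ceacam16) summed to between 1936 and 8148 CPM in the WT_P60 SCs, and Sox2, Sox10 and Sox9 were at 3 counts or fewer in every WT_P30 OHC. Among the induced types the OHC markers had medians of 1664 CPM in OHC-like cells, 1091 CPM in nascent HCs and 188 CPM in failing SCs, a difference that the sorting by Myo7a and Slc26a5 in part built in. Atoh1 reads count the transgene and the endogenous gene alike. They ran from 783 to 13608 CPM in OHC-like cells with a median of 5765, from 1341 to 15999 in nascent HCs with a median of 4264, and from 383 to 28402 in failing SCs with a median of 2496. Of the wild-type cells, 1 of 17 OHCs and 2 of 16 SCs had Atoh1 at 1 CPM or more, at most 20.9 CPM, so that every induced cell was far above every wild-type cell.

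The makeup of the members differed between WT_P60 SCs and the other groups. WT_P60 SCs held Hes1 and little else, whereas WT_P30 OHCs held none of it and few reads of any member. All 3 induced types held Hes6, Heyl and Hes1. Means of Hes6 and Heyl were 361 CPM or more in each, but that of Hes6 in failing SCs was 181 CPM without cells 2 and 4 of this type. Hey1 and Hey2 were seen in some nascent HCs and failing SCs and at lower levels in OHC-like cells. Hes5 stayed low in every group.

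**Figure D1:**
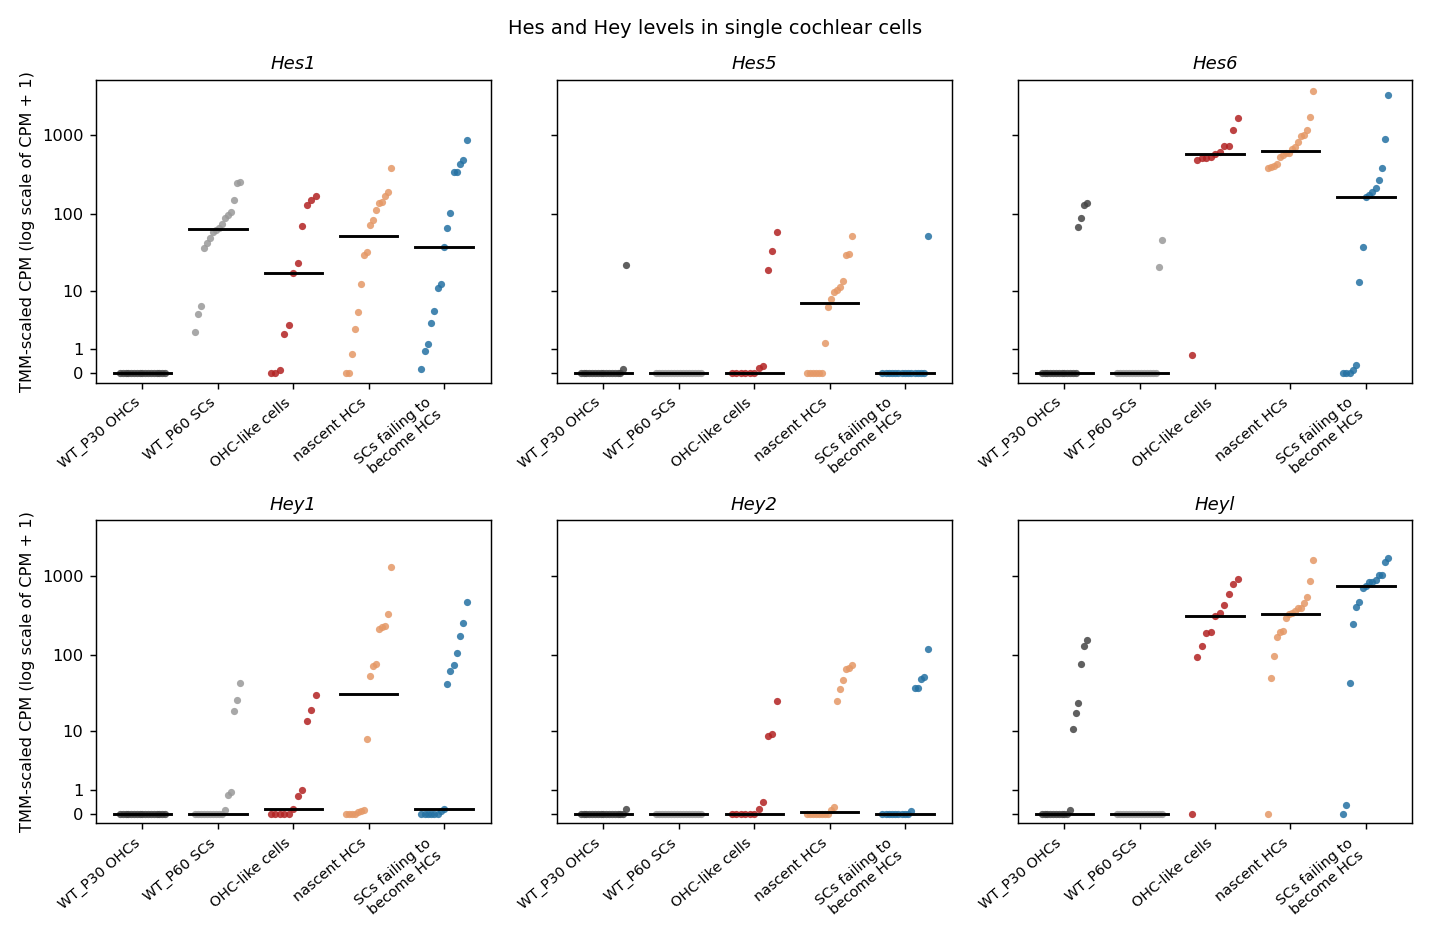
Level of each member in single cells of the 5 groups, in CPM scaled by TMM on a log axis of CPM + 1, with a point per cell and a bar at the median of the group. Hes1 is at 0 in all 17 WT_P30 OHCs, whereas Hes6 lies between 385 and 3608 CPM in all 16 nascent HCs.

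Against WT_P60 SCs, members past a 4-fold difference in group mean were mostly higher in induced cells. The share of all 11443 filtered genes past the same fold is the background of each count, and of the counts of pathway genes against WT_P60 SCs further below. In OHC-like cells 4 of 6 members were higher and 0 lower, beside 18.3% and 10.5% of all genes. In nascent HCs 5 were higher and 0 lower, beside 17.7% and 8.73%, and in failing SCs 5 were higher and 0 lower, beside 14.9% and 7.31%. These 3 comparisons share their control cells. The median log2 ratio over the 6 members was 3.92, 5.18 and 4.67, while that over all filtered genes was 0.32, 0.34 and 0.25. A group whose mean was under 3 counts per cell was set to that floor, so that such ratios and medians are lower bounds.

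Between the wild-type groups, 2 members (Hes6 and Heyl) were higher and 2 (Hes1 and Hey1) lower in OHCs than in SCs, beside 13.3% of all genes higher and 21.2% lower. OHC-like cells had all 6 members past 4-fold above the WT_P30 OHCs, beside 24.1% of all genes higher and 7.77% lower. Among induced types fewer members differed. OHC-like cells had Hey1 and Hey2 lower and 0 members higher than failing SCs, beside 9.83% of all genes lower and 11.2% higher. They had the same 2 members lower and 0 higher against nascent HCs, beside 5.03% lower and 3.35% higher. Nascent HCs and failing SCs differed past 4-fold in 0 members, beside 9.6% of all genes higher and 7.4% lower.

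**Figure D2:**
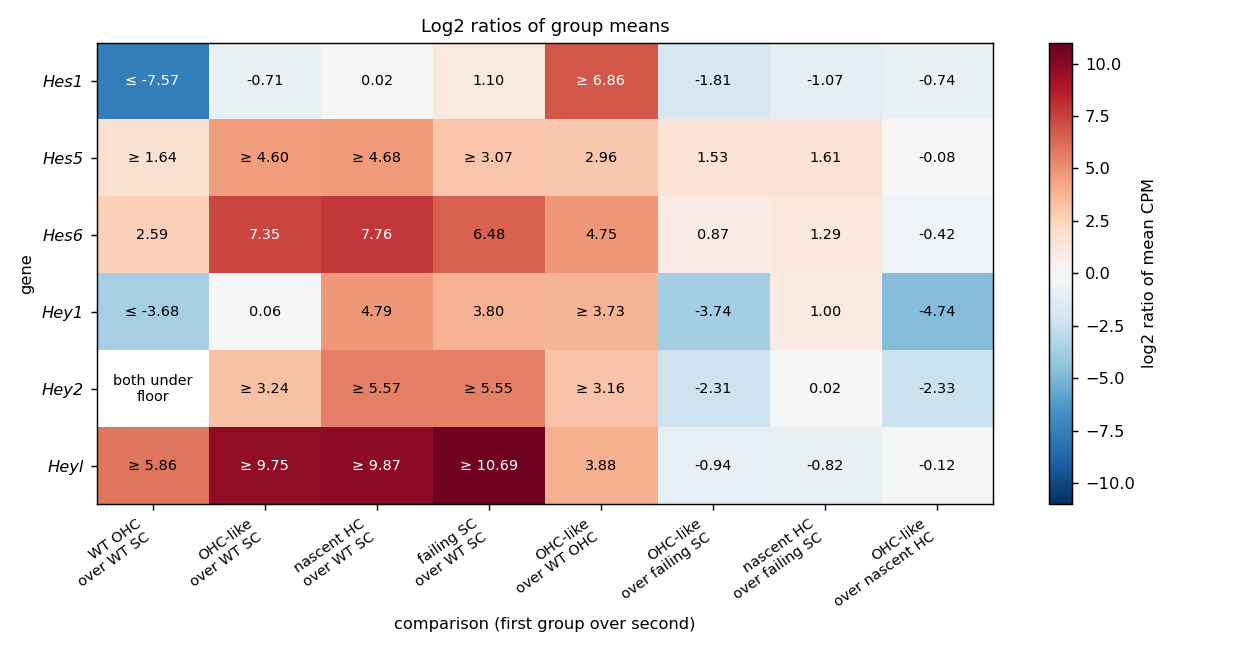
Log2 ratio of group mean CPM for each member (rows) in the 8 comparisons (columns, first group over second), colored from blue for lower to red for higher, with the signs ≥ and ≤ marking ratios against a group set to the floor of 3 counts per cell. Heyl has the highest ratios of the induced types against WT_P60 SCs, from 9.75 to 10.69, and stands at 5.86 in WT_P30 OHCs over WT_P60 SCs.

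Sequence upstream of the start sites is given for Hes5, Hes6 and Hey2, the 3 members with RefSeq promoter windows on GRCm38. Rbpj is the DNA-binding protein at Notch target genes, and Atoh1 binds DNA at E-boxes. Capitals mark the Rbpj core TGGGAA, read on either strand, in Hes5 and Hey2, and the E-box CANNTG in the 2 windows of Hes6. All 4 sequences run 5′ to 3′ on the strand of the gene and end at or just past the start site.
Hes5, chr4:154960673-154960922, plus strand: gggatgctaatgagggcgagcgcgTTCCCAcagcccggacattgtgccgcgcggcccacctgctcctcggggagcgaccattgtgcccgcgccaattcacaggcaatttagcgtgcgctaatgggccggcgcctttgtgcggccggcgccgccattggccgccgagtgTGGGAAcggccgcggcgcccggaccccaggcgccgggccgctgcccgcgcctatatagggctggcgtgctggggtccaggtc
Hey2, chr10:30842781-30843033, minus strand: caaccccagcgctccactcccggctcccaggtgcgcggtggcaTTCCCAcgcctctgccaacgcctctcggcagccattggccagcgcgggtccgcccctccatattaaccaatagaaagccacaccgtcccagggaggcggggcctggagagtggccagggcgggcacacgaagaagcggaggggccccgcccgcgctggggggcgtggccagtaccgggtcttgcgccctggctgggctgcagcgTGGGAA
Hes6, chr1:91414039-91414288, minus strand: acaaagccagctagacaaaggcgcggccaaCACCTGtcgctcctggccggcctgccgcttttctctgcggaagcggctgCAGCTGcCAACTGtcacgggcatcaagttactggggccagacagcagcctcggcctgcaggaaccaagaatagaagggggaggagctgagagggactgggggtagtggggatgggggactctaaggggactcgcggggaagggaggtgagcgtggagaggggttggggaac
Hes6, chr1:91413223-91413472, minus strand: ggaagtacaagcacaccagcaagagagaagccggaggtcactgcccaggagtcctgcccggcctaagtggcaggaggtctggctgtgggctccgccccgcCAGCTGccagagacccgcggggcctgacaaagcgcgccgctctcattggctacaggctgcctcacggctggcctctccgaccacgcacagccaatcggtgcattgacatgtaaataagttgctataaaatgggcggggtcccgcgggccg
In windows of 250 bases before and 50 after the start, TGGGAA was found 2 times in Hes5, at -226 and -82, and 2 times in Hey2, at -207 and -3. It was found 0 times in both windows of Hes6. Of all 32851 promoter windows 25.6% hold it. CANNTG was found at -220, -171 and -164 in the upstream window of Hes6 and at -150 in the other, 1 time in Hes5 at -194 and 1 time in Hey2 at -223, while 72.3% of all windows hold it. The N-box CACNAG, which the repressors themselves are known to bind, was found 2 times in the downstream window of Hes6, at -237 and 16, and 0 times in the other windows, beside 42.5% of all windows. None of the searched motifs overlapped another in these windows, and a match is a description of the letters only.

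Hes1 (chr16:30064384-30067796, plus strand, GRCm38) is the general Notch effector of the inner ear and holds back hair cell formation. In the WT_P60 SCs it ranged from 2.27 to 254 CPM with a median of 64.5 and was detected in 16 of 16 cells. In the WT_P30 OHCs it had 0 counts in all 17 cells, which allows a share of cells of up to 19.5% (exact 95% interval, counting error only). The wild-type groups did not overlap, and the mean was at least 191-fold lower in OHCs. The share of all genes without overlap between these groups was not counted.

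OHC-like cells had Hes1 from 0 to 169 CPM, median 17.1, with 8 of 11 cells detected. Nascent HCs had 0 to 383 CPM, median 52.5, with 13 of 16 cells. failing SCs had 0.14 to 880 CPM, median 37.9, with 13 of 15 cells. The induced types overlapped each other and the WT_P60 SCs, although 5 of the 15 failing SCs lay above every WT_P60 SC. Means were 84.5 ± 76.0 (SD, n = 16) in WT_P60 SCs, 51.5 ± 67.2 (n = 11) in OHC-like cells, 86.0 ± 103 (n = 16) in nascent HCs and 181 ± 260 (n = 15) in failing SCs. No induced type was past 4-fold from WT_P60 SCs, with log2 ratios of -0.71, 0.02 and 1.10. Against WT_P30 OHCs the mean of OHC-like cells was at least 116-fold higher, and 9 of the 11 cells had reads that no WT_P30 OHC had. The ratio of OHC-like cells to failing SCs, -1.81, went to -2.19 and past 4-fold without OHC-like cell 1.

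Hes5 (chr4:154960923-154962371, plus strand) is the Notch effector most closely tied to the SCs next to hair cells in development. It had 0 counts in all 16 WT_P60 SCs and reached 1 CPM in 1 of 17 WT_P30 OHCs, at 22.1 CPM. OHC-like cells ranged from 0 to 58.4 CPM with 3 of 11 cells detected, nascent HCs from 0 to 52.3 CPM with 10 of 16, and 1 of 15 failing SCs held 52.7 CPM. Its medians were 0 in every group but the nascent HCs, where the median was 6.70 CPM, and the groups overlapped at 0. At a detection limit of 10 CPM in place of 1, only 25.0% of nascent HCs held it.

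Relative to WT_P60 SCs the Hes5 mean stood higher by at least 24.2-fold in OHC-like cells (10.2 ± 19.5, n = 11), at least 25.6-fold higher in nascent HCs (10.7 ± 14.8, n = 16) and at least 8.37-fold higher in failing SCs (3.52 ± 13.6, n = 15). The last value is carried by cell 1 of the failing SCs, without which both groups were under the floor. The log2 ratios to failing SCs, 1.53 for OHC-like cells and 1.61 for nascent HCs, went to 4.60 and 4.67 without that cell. OHC-like cell 9 held the highest level of its type, and without it the log2 ratio to WT_P60 SCs went from 4.60 to 3.67 and that to WT_P30 OHCs from 2.96 to 2.03. Without WT_P30 OHC 13 the last ratio was 4.53. Hes5 exons share 433 bases with Gm20421 on the opposite strand, and the strand setting of the counts is not given in the sources used here, so that reads of both cannot be told apart.

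Hes6 (chr1:91411483-91414038, minus strand) was the only member in which every nascent HC lay above every wild-type cell. Outside the members the Notch pathway gene Mfng did so too, at 21.9 CPM or more in nascent HCs, and the share of all genes that do was not counted. Only 2 of 16 WT_P60 SCs and 4 of 17 WT_P30 OHCs held Hes6 at 1 CPM or more, at most 46.6 and 139 CPM. In contrast, all 16 nascent HCs held it at 385 to 3608 CPM, median 637, above every wild-type cell. OHC-like cells ranged from 0.67 to 1646 CPM, median 580, and 10 of 11 lay above every wild-type cell. The exception was OHC-like cell 4, the cell with the fewest genes detected, and without it the lowest value was 480 CPM.

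failing SCs were uneven in Hes6, from 0 to 3262 CPM with a median of 165, and 10 of 15 held it. Means were 4.20 ± 12.4 (n = 16) in WT_P60 SCs, 25.3 ± 49.3 (n = 17) in WT_P30 OHCs, 683 ± 420 (n = 11) in OHC-like cells, 912 ± 799 (n = 16) in nascent HCs and 374 ± 833 (n = 15) in failing SCs. The means of OHC-like cells, nascent HCs and failing SCs were 163-fold, 217-fold and 89.1-fold that of WT_P60 SCs, and OHC-like cells were 27.0-fold above WT_P30 OHCs. WT_P60 SC 10 holds most of the Hes6 of its group. Without it the log2 ratios to WT_P60 SCs went from 7.35 to 8.96 in OHC-like cells, from 7.76 to 9.38 in nascent HCs, from 6.48 to 8.09 in failing SCs and from 2.59 to 4.21 in WT_P30 OHCs. Cell 2 of the failing SCs holds 3262 CPM and is among the cells with few genes detected. Without it the failing SCs stood at 5.32 over WT_P60 SCs, OHC-like cells went from 0.87 to 2.03 over them and nascent HCs from 1.29 to 2.44. The last 2 ratios are then past 4-fold.

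Hey1 (chr3:8663359-8667256, minus strand), a Notch effector expressed in the early prosensory region, was present in a subset of cells only. It had 0 counts in all 17 WT_P30 OHCs and reached 1 CPM in 3 of 16 WT_P60 SCs, at most 43.8 CPM. Nascent HCs ranged from 0 to 1302 CPM, median 31.1, with 9 of 16 cells detected and 8 above every WT_P60 SC. failing SCs ranged from 0 to 469 CPM, median 0.16, with 7 of 15 detected and 6 above every WT_P60 SC. In OHC-like cells it stayed at or under 30.4 CPM, with 3 of 11 cells detected and 0 above every WT_P60 SC. Cells of each induced type overlapped at 0.

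Hey1 means were 5.68 ± 12.8 (n = 16) in WT_P60 SCs, 5.90 ± 10.5 (n = 11) in OHC-like cells, 157 ± 324 (n = 16) in nascent HCs and 78.8 ± 132 (n = 15) in failing SCs. Nascent HCs were 27.7-fold and failing SCs 13.9-fold above WT_P60 SCs, while the log2 ratio of OHC-like cells was 0.06, which went to -0.72 without OHC-like cell 5 and to 0.91 without WT_P60 SC 15. Against nascent HCs the OHC-like mean was 26.6-fold lower, and against failing SCs it was 13.3-fold lower. Single cells moved these values without ending a call. Nascent HC 7 held 1302 CPM, and without it the log2 ratios went from 4.79 to 3.83 for nascent HCs over WT_P60 SCs and from -4.74 to -3.78 for OHC-like cells over nascent HCs. Without WT_P60 SC 15 the ratios to WT_P60 SCs were 5.65 in nascent HCs, 4.65 in failing SCs and -2.82 in WT_P30 OHCs. Without cell 1 of the failing SCs, the failing SCs stood at 3.17 over WT_P60 SCs and OHC-like cells at -3.11 over them. Without OHC-like cell 5, OHC-like cells stood at -5.51 over nascent HCs, -4.51 over failing SCs and 2.96 over WT_P30 OHCs, in place of 3.73.

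Hey2 (chr10:30832359-30842801, minus strand), known for holding pillar cells in the SC fate in the neonatal cochlea, was not detected in either wild-type group at 1 CPM. A single count in 1 WT_P30 OHC was its only wild-type read. It reached 1 CPM in 3 of 11 OHC-like cells, at most 25.4 CPM, in 6 of 16 nascent HCs, at most 74.7 CPM, and in 5 of 15 failing SCs, at most 118 CPM. Most cells of each induced type were below detection, and the medians were under 1 CPM, so that these groups overlapped each other and the wild-type cells at 0.

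Hey2 means were 3.97 ± 7.92 (n = 11) in OHC-like cells, 19.9 ± 28.8 (n = 16) in nascent HCs and 19.7 ± 34.0 (n = 15) in failing SCs. These are at least 9.45-fold, 47.4-fold and 46.8-fold above WT_P60 SCs. The OHC-like mean was 5.02-fold lower than that of nascent HCs and 4.96-fold lower than that of failing SCs. Both rest on few cells. Without OHC-like cell 10 the log2 ratio went from -2.33 to -3.44 against nascent HCs, from -2.31 to -3.43 against failing SCs, from 3.24 to 2.12 against WT_P60 SCs and from 3.16 to 2.04 against WT_P30 OHCs. Without cell 10 of the failing SCs the second ratio was -1.67 and no longer past 4-fold, and the ratio of failing SCs to WT_P60 SCs went from 5.55 to 4.91.

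Heyl (chr4:123233556-123249875, plus strand), a Notch effector best known from vascular smooth muscle, had 0 counts in all 16 WT_P60 SCs. Of the WT_P30 OHCs 6 of 17 held it, at most 156 CPM. OHC-like cells ranged from 0 to 918 CPM, median 307, nascent HCs from 0 to 1600 CPM, median 332, and failing SCs from 0 to 1669 CPM, median 752. It was detected in 10 of 11, 15 of 16 and 13 of 15 of these cells. With every WT_P60 SC at 0, any cell with a Heyl read lay above them by construction. Such reads were in 10 of 11 OHC-like cells, 15 of 16 nascent HCs and 14 of 15 failing SCs. Cell 10 of the failing SCs had only 2 reads, at 0.29 CPM. Of the OHC-like cells, 8 of 11 lay above every WT_P30 OHC. The share of all genes with cells above another group was not counted, for this or any other member.

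Heyl means were 24.5 ± 48.9 (SD, n = 17) in WT_P30 OHCs, 361 ± 293 (n = 11) in OHC-like cells, 392 ± 384 (n = 16) in nascent HCs and 692 ± 507 (n = 15) in failing SCs. They were at least 860-fold, 933-fold and 1649-fold above WT_P60 SCs in the induced types and at least 58.2-fold above in WT_P30 OHCs. OHC-like cells were 14.8-fold above WT_P30 OHCs. Without WT_P30 OHC 4 the last 2 log2 ratios went from 5.86 to 5.27 and from 3.88 to 4.48. Among the induced types its mean was highest in failing SCs, with log2 ratios of -0.94 for OHC-like cells and -0.82 for nascent HCs over them, neither of which is past 4-fold.

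Ordered by mean CPM, the groups stood from failing SCs through nascent HCs, WT_P60 SCs and OHC-like cells to WT_P30 OHCs for Hes1. By mean log2(CPM + 1), WT_P60 SCs came first for Hes1 at 5.67, before failing SCs at 5.11 and nascent HCs at 4.77. WT_P60 SCs also had its highest median. For Hes6 the order by mean CPM was nascent HCs, OHC-like cells, failing SCs, WT_P30 OHCs and WT_P60 SCs. For Heyl it was failing SCs, nascent HCs, OHC-like cells, WT_P30 OHCs and WT_P60 SCs. Of the 24 pairs of neighbors in the orders of the 6 members, 2 differed in mean log2(CPM + 1) by more than the larger SD of the pair. The same rule was not applied to all filtered genes, so that this count has no background. The 2 pairs are given next. They were OHC-like cells over WT_P30 OHCs in Hes1, by 3.67 against an SD of 3.03, and the same groups in Heyl, by 5.58 against an SD of 2.84. Neighbors among the 3 induced types did not differ beyond their spread in any member.

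Per length, Hes1 came first among the 6 members in WT_P60 SCs, and Hes6 or Heyl came first in the other groups. The summed mean of the 6 in TPM, which scales counts by exon length and to 1000000 per cell, was 46.0 in WT_P30 OHCs, 124 in WT_P60 SCs, 1058 in OHC-like cells, 1525 in nascent HCs and 1029 in failing SCs. Hes1 made up 91.2% of that sum in WT_P60 SCs, 5.20% in OHC-like cells, 6.12% in nascent HCs and 24.3% in failing SCs. Hes6 made up 78.6% in OHC-like cells and 72.9% in nascent HCs, and Heyl 14.0% and 12.0%. In WT_P30 OHCs, at the lowest sum, Hes6 made up 71.3% and Heyl 23.2%, so that this makeup was not particular to induced cells. In failing SCs Hes6 made up 38.7% and Heyl 29.4%, but without cells 2 and 4 Heyl came first with 35.2%, before Hes1 with 28.0% and Hes6 with 27.9%. In OHC-like cells Hes6 also made up 78.6% without cell 4. Cell by cell, the member with the highest TPM was Hes1 in 14 of 16 WT_P60 SCs, Hes6 in 11 of 11 OHC-like cells and in 15 of 16 nascent HCs, and Heyl in 8, Hes1 in 4 and Hes6 in 3 of the 15 failing SCs. Of the 11 WT_P30 OHCs with any read of a member, it was Heyl in 5, Hes6 in 4 and Hes5 in 2.

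Induced cells co-expressed several members. The number of members at 1 CPM or more per cell had a median of 1 in both wild-type groups and of 4 in each induced type, with ranges of 0 to 2 in WT_P30 OHCs, 1 to 2 in WT_P60 SCs, 0 to 5 in OHC-like cells, 2 to 5 in nascent HCs and 1 to 5 in failing SCs. No cell held all 6. Of the 42 induced cells, 35 held both Hes6 and Heyl, and all 14 cells with Hes5 held both. Hey1 and Hey2, by comparison, were together in 5 cells, while 14 held only Hey1, 9 only Hey2 and 14 neither. Hes1 and Heyl correlated differently within types, with a Spearman rho of 0.76 over 11 OHC-like cells, 0.33 over 16 nascent HCs and -0.69 over 15 failing SCs. These cells share library series and depth, and the rho values are descriptions.

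**Figure D3:**
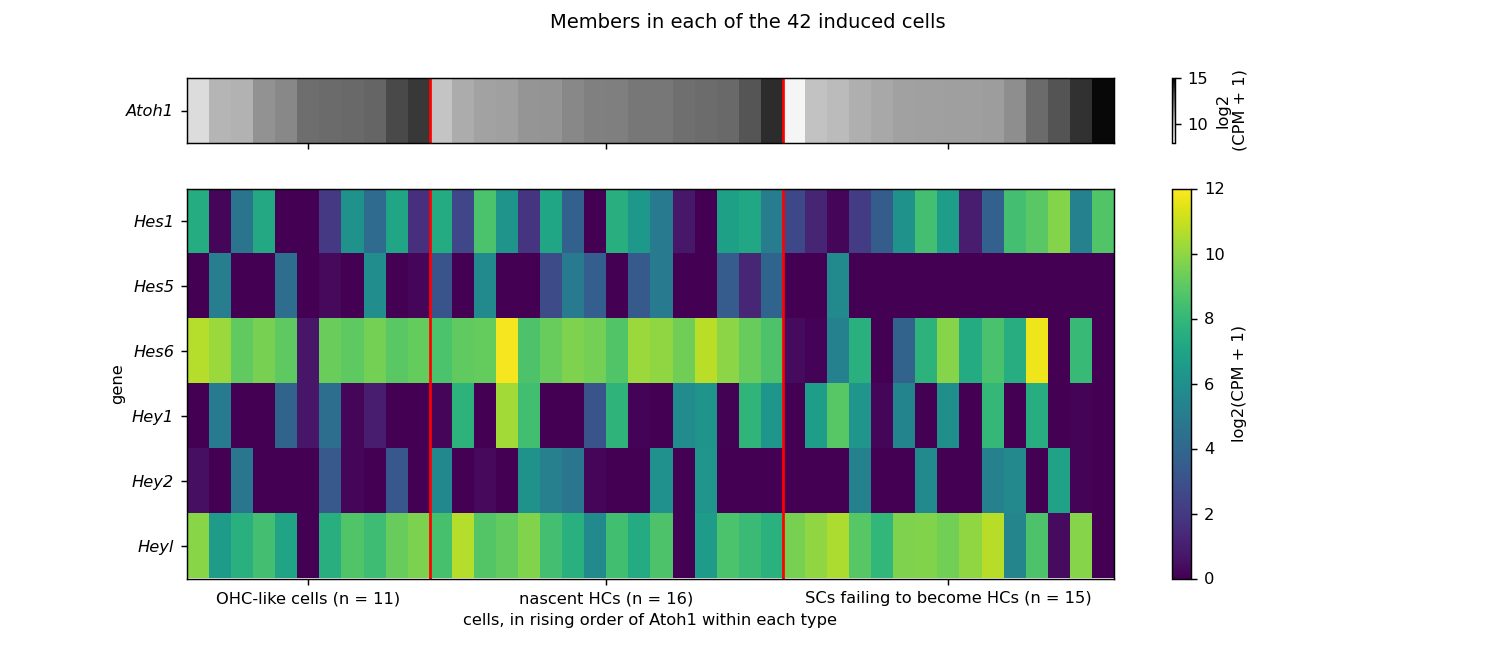
Level of Atoh1 (top, gray) and of the 6 members (bottom) in each of the 42 induced cells, as log2(CPM + 1), with cells in rising order of Atoh1 within each type and red lines between types. Colors are to be compared within a row, and Hes6 is seen in 36 of the 42 cells and Hes5 in 14.

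Among the 42 induced cells the members bore little relation to the Atoh1 level. Spearman's rho with Atoh1 was 0.16 for Hes1, 0.08 for Hes5, 0.12 for Hes6, -0.10 for Hey1 and -0.04 for Hey2. Heyl stood lower where Atoh1 was higher, with a rho of -0.40 and a Pearson r of -0.43. In the 14 cells of lowest Atoh1 the median of Heyl was 650 CPM, in the middle 14 it was 332 CPM and in the 14 of highest Atoh1 it was 300 CPM. The first of these sets held 7 failing SCs and the others 4 each. Within types the rho of Heyl was 0.26 in OHC-like cells, -0.56 in nascent HCs and -0.38 in failing SCs. Within library series it was 0.09 in A, -0.00 in B, -0.41 in C, 0.07 in D and -0.43 in E, so that the pooled relation was seen in 2 of 5 series.

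Hes1 followed Atoh1 in a single type. Its rho was 0.72 over the 15 failing SCs, and 0.69 over the 11 cells of series C, which holds 10 of them. In OHC-like cells and nascent HCs it was -0.13 and -0.17. For Hes6 the rho with Atoh1 differed in sign between subsets. It was -0.49 in OHC-like cells, 0.31 in nascent HCs and 0.19 in failing SCs. By series it was 0.49 in A (6 cells), -0.65 in B (11 cells), -0.04 in C (11 cells), -0.86 in D (7 cells) and -0.04 in E (7 cells). The total count, a measure of depth, had a rho of 0.32 with Hes6 and 0.38 with Hes5. The number of genes detected had a rho of 0.57 with Hes6 and 0.32 with Hes5. Atoh1 was related weakly to both measures, with a rho of 0.25 for the total count and -0.04 for the genes detected.

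**Figure D4:**
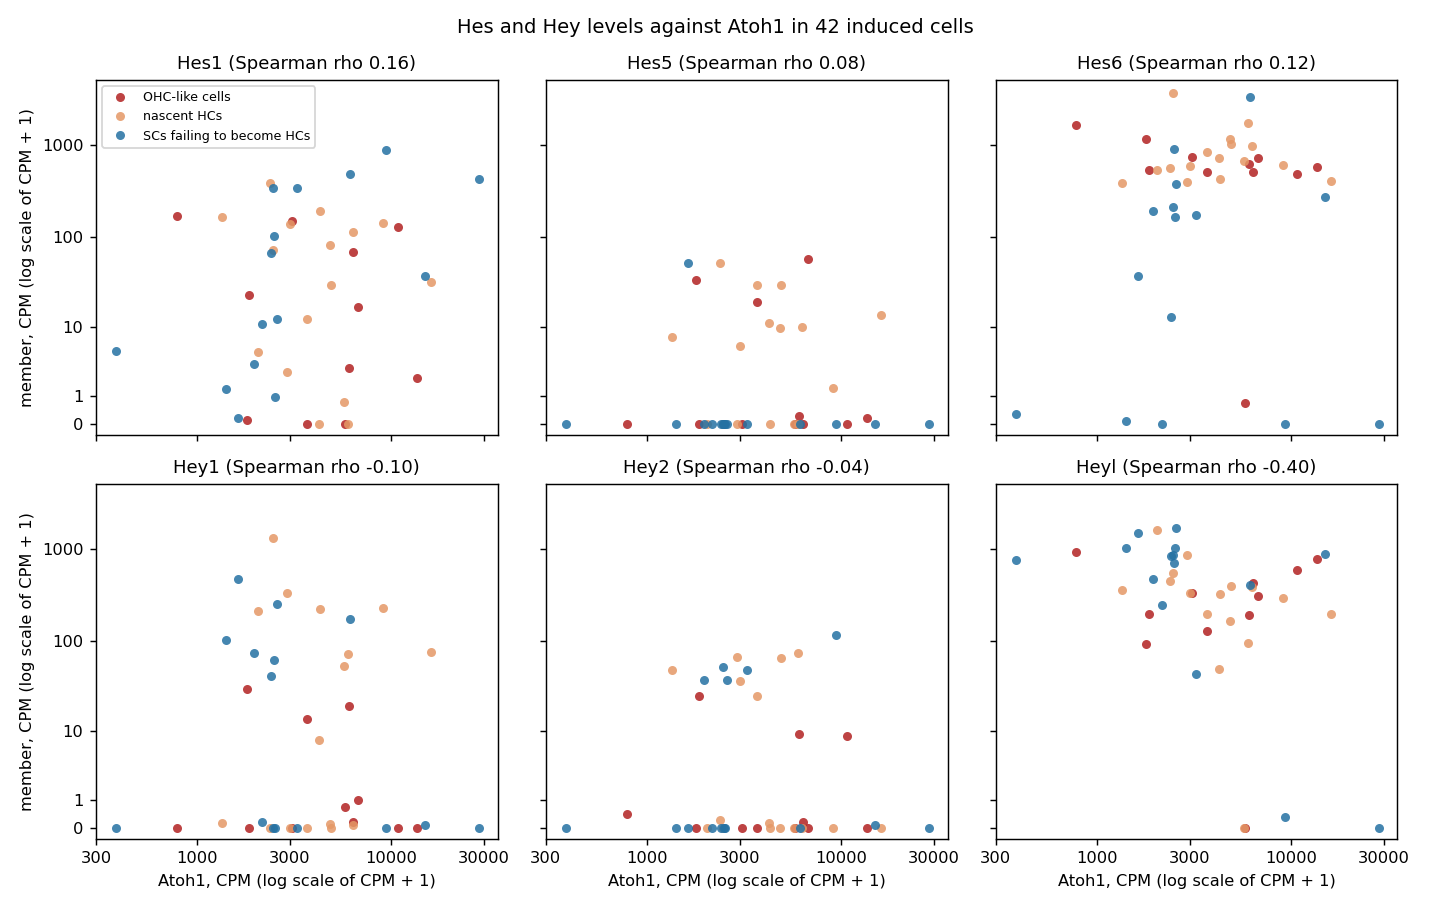
Level of each member against the level of Atoh1 in the 42 induced cells, both in CPM on log axes of CPM + 1, colored by type, with Spearman's rho over the 42 cells above each panel. Heyl has a rho of -0.40, and the other 5 members lie between -0.10 and 0.16.

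The types were unevenly spread over library series, and several differences between induced types were compared within them. Series C held 10 of the 15 failing SCs beside 1 nascent HC, and series B and D held none of them. Within series, Hey1 was lower in OHC-like cells than in nascent HCs in B, D and E, with log2 ratios of -4.72, -6.64 and -4.84, and in A both were under the floor. Hey2 was lower in OHC-like cells in all 4 series that hold both types, with log2 ratios of -6.86 or lower in A, -1.54 in B, -7.38 or lower in D and -0.42 in E, so that 2 of 4 were past 4-fold. Against failing SCs, Hey1 in OHC-like cells stood at a log2 ratio of -8.61 or lower in A and of -5.22 in E, from 1 or 2 OHC-like cells each. Hey2 stood at -1.57 in E and was under the floor in both in A. Heyl in OHC-like cells over failing SCs was -0.00 in A and -3.36 in E. Hes6 in nascent HCs over failing SCs was -1.17 in A, 1.68 in C and 0.45 in E, so that its direction was not the same in all series.

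Other cell types of the cochlea express some of these members, Heyl in mural cells and Hey1 and Hey2 in endothelium, and their markers were summed in every group. The 4 mural markers (Pdgfrb, Rgs5, Acta2 and Cspg4) summed to at most 0.40 CPM in OHC-like cells and in nascent HCs and to at most 24.0 CPM in failing SCs, with medians of 0. In the 38 induced cells with Heyl the mural sum was at most 19.0 CPM, and in the 4 without Heyl at most 24.0 CPM, with a median of 0 in both. The 5 endothelial markers (Pecam1, Cldn5, Cdh5, Kdr and Tek) summed to at most 24.1 CPM in OHC-like cells, 21.7 in nascent HCs and 8.89 in failing SCs, and Tek was at 3 counts or fewer in every OHC-like cell. In the 19 induced cells with Hey1 their sum was 0.00, and in the 14 with Hey2 it was at most 21.7 CPM with a median of 0. The rho of Hey2 with this sum was 0.11. Higher sums were seen in the wild-type cells, at most 296 CPM of endothelial markers and 219 CPM of mural markers in WT_P60 SCs. Fibroblast markers (Col1a1, Col3a1 and Dcn) summed to at most 132 CPM in any induced cell and had a rho of 0.37 with Heyl, their sum being 0 in the 4 induced cells without Heyl. Macrophage and blood markers (C1qa, C1qb, Cx3cr1 and Hbb-bs) summed to at most 1144 CPM in an OHC-like cell, through Hbb-bs. Their part in the members' levels was not tested.

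The sum of the 6 SC markers had a rho of 0.37 with Heyl and -0.41 with Hes6 over the 42 induced cells. Single markers were uneven. With Heyl the rho was 0.54 for Bace2 and between 0.06 and 0.23 for the other 5. With Hes6 it was -0.51 for Bace2, between -0.45 and -0.30 for Sox2, Sox10, Sox9 and Ceacam16, and 0.25 for Fgfr3. Of hair cell genes, Myo7a had a rho of 0.53 with Hes6 and Insm1, a zinc finger factor of nascent OHCs, one of 0.53. Lhx3 and Ocm had 0.54 with Hes5, and Gfi1, a repressor of neuronal genes in hair cells, had -0.47 with Heyl. Other hair cell genes had values smaller in size or of the other sign, with Ikzf2 at -0.32 for Hes6 and -0.35 for Hes5. Of the SC markers, Sox9 had 0.42 with Hes1, but the other 5 lay between -0.11 and 0.17, and the sum of the 6 had 0.09. Since types were sorted by Myo7a, these values contain the difference between types: within types the rho of Hes6 with Myo7a was -0.24 in OHC-like cells, 0.25 in nascent HCs and 0.59 in failing SCs.

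Most Notch ligands were higher in induced cells. Dll1, Dll3, Dll4 and Jag2, 4 of the 5 ligands, were past 4-fold higher than in WT_P60 SCs in each induced type, although all reads of Dll4 in failing SCs came from their cell 7. Dll3, which acts on Notch within the cell that makes it, averaged 483 CPM in OHC-like cells, 652 in nascent HCs and 27.3 in failing SCs, and Jag2, a ligand of hair cells, averaged 323, 288 and 78.7 CPM. Neither passed the floor in WT_P60 SCs. Jag1, the ligand of SCs, averaged 103 CPM in WT_P60 SCs and 53.0, 95.7 and 179 CPM in the induced types, and passed 4-fold in none of them. Over the 42 cells Hes6 had a rho of 0.72 with Jag2, 0.62 with Dll3, 0.38 with Dll4, 0.36 with Dll1 and -0.20 with Jag1. Within types those of Jag2 and Dll3 were 0.25 and 0.10 in OHC-like cells, 0.36 and 0.18 in nascent HCs and 0.47 and 0.50 in failing SCs, so that the pooled values hold the difference between types.

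Notch receptors were thinly read. Of the 4 receptors 3 passed the filter, and of these Notch1 and Notch3 were past 4-fold higher than in WT_P60 SCs in each induced type, and Notch2 was lower in OHC-like cells. The 3 calls of OHC-like cells each ended without 1 cell. Without OHC-like cell 1 the log2 ratio of Notch1 went from 2.27 to 0.50 and that of Notch3 from 3.42 to 0.80, and without OHC-like cell 5 that of Notch1 was 1.99. Without WT_P60 SC 11 that of Notch2 went from -2.60 to -1.63. Notch1 averaged 2.03 CPM in OHC-like cells, 14.9 in nascent HCs and 57.7 in failing SCs and had 0 counts in both wild-type groups. Its rho with Heyl was 0.45 over the 42 cells, 0.28, 0.66 and -0.09 within OHC-like cells, nascent HCs and failing SCs. Mfng, of the fringes that add sugars to Notch and change which ligand it answers, had 0 counts in wild-type cells and averaged 688, 602 and 133 CPM in the induced types. Its rho with Hes6 was 0.59 over the 42 cells and -0.07, -0.07 and 0.78 within types. Lfng did not pass 4-fold in any induced type against WT_P60 SCs, and Rfng was lower in failing SCs, at 6.67 CPM against 28.2 CPM. That log2 ratio, -2.08, lay so near the limit that leaving out any 1 of 14 cells (10 failing SCs and 4 WT_P60 SCs) ended the call, at most to -1.83. Over the 42 cells Lfng and Rfng had a rho of 0.11 and 0.52 with Hes6.

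**Figure D5:**
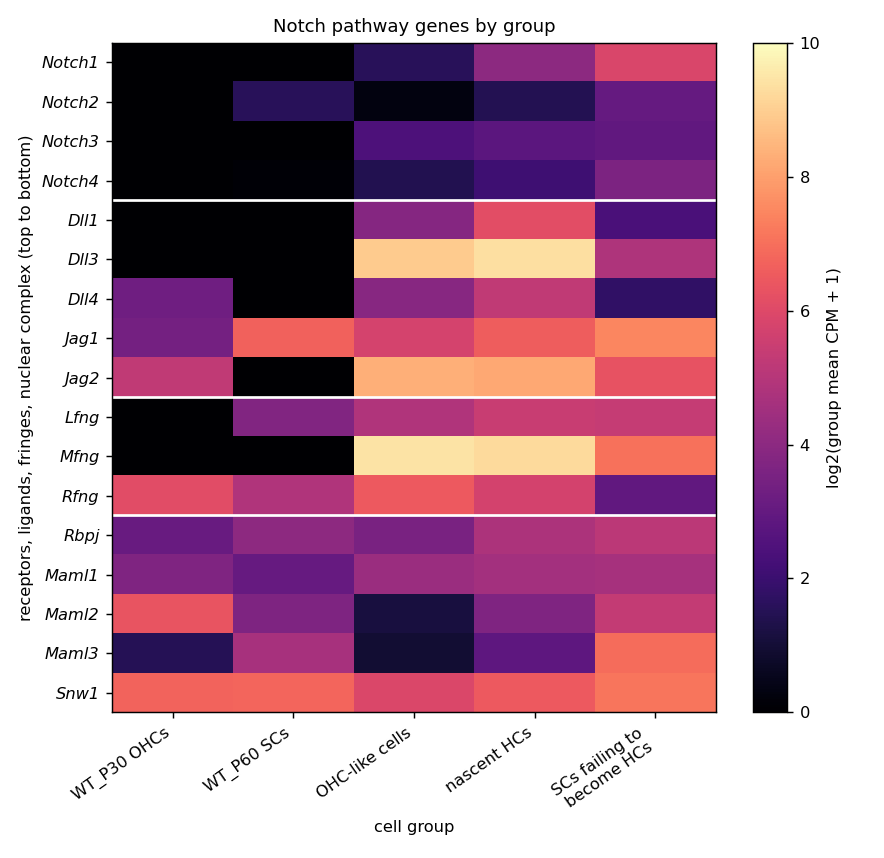
Group mean level of Notch receptors, ligands, fringes and nuclear complex genes (rows, top to bottom) in the 5 groups, as log2(mean CPM + 1), to be compared within a row. Dll3, Jag2 and Mfng are bright in OHC-like cells and nascent HCs, with means from 288 to 688 CPM, and dark in WT_P60 SCs.

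Genes downstream of the receptor were counted past 4-fold against WT_P60 SCs. Of all filtered genes, 18.3%, 17.7% and 14.9% were higher in OHC-like cells, nascent HCs and failing SCs, and 10.5%, 8.73% and 7.31% lower. Of 8 genes of receptor cleavage 0 were past 4-fold higher than in WT_P60 SCs in any induced type, and Psen2, a subunit of gamma-secretase, was lower in all 3. Aph1b, another subunit, was lower in OHC-like cells and failing SCs. Of 5 genes of the nuclear complex, Maml3 was higher in failing SCs and Maml2 and Maml3 lower in OHC-like cells, while Rbpj passed 4-fold in none and averaged 15.3 CPM in WT_P60 SCs and 10.5, 26.8 and 33.8 CPM in the induced types. Of 6 Groucho genes, the corepressors that Hes and Hey proteins recruit, 5 passed the filter. Of these Tle2 was past 4-fold higher in all 3 induced types and the others in none. Of 8 Notch inhibitors and feedback genes 5 passed the filter. Of these Dtx1, Dtx2 and Dtx3, which act on Notch as ubiquitin ligases, were higher in all 3 induced types. Calls that ended without 1 cell were Aph1b in OHC-like cells (without OHC-like cell 2, 4 or 7 or WT_P60 SC 1 or 10), Dtx3 in OHC-like cells (without cell 7), Maml3 in failing SCs (without cell 2) and Tle2 in failing SCs (without cell 5 or 15). Nrarp, a feedback target of Notch, averaged at most 2.26 CPM in any group and did not pass the filter.

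The other Hes family repressors did not follow the members. Hes2, Hes3 and Helt had 0 counts in every cell, Hes7 did not pass the filter, and Bhlhe40 and Bhlhe41, which are not known as Notch effectors, were not higher in any induced type than in WT_P60 SCs past 4-fold. Bhlhe40 averaged 123 CPM in WT_P60 SCs and 131 CPM in failing SCs, and 14.8 CPM in OHC-like cells and 1.64 CPM in nascent HCs, both past 4-fold lower than in WT_P60 SCs. Of 8 hair cell factors (Atoh1, Ikzf2, Pou4f3, Gfi1, Insm1, Lhx3, Barhl1 and Rbm24) 8 were higher than in WT_P60 SCs in OHC-like cells and nascent HCs and 6 in failing SCs, of which Atoh1 and Ikzf2 count the transgenes. Nearly all of the Pou4f3 level of OHC-like cells came from cell 11, at 696 CPM, and that of nascent HCs from cell 2, at 523 CPM, without which the gene was under the floor. In failing SCs cell 7 held 346 CPM of Gfi1 and 140 CPM of Lhx3, and without it neither was past 4-fold. Whichever 1 cell was left out, 7, 7 and 4 of these factors stayed past 4-fold in OHC-like cells, nascent HCs and failing SCs.

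The genes whose levels were most like a member's were taken as the 3 with the highest Spearman's rho among filtered genes. Over the 42 induced cells these were Fastkd5 (0.70), Chchd2 (0.66) and Nup210 (0.65) for Hes5, and they included Chchd2-ps (0.56) and Resf1 (0.54) for Hes1. For Hes6 they were Itpk1 (0.77), Oacyl (0.74) and Ece1 (0.74), for Hey1 Ndrg3 (0.61), Glrx5 (0.61) and Cog2 (0.59), and for Hey2 Slc1a4 (0.54), Dohh (0.53) and Septin2 (0.53). For Heyl they were Parm1 (0.73), Lsm6 (0.70) and Cd9 (0.68). Parm1 and Cd9 were the most abundant in failing SCs, at means of 1632 and 1496 CPM, as Heyl was. Over all 75 cells the most like genes were Sox9 for Hes1 (0.67), Gm12962 for Hes5 (0.62), Sgpp2 (0.86) and Mfng (0.85) for Hes6, Spint2 for Hey1 (0.62), Adam9 for Hey2 (0.56) and Gipc2 for Heyl (0.85). Several of these, such as Gipc2 and Mfng, had 0 counts in wild-type cells, so that the rho over 75 cells mostly follows the split between induced and wild-type cells.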

How the data were processed

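Single-cell RNA-Seq of 75 mouse cochlear cells was measured with a Smart-Seq HT kit. The authors deposited raw counts of reads per gene, which per the submitters' processing notes and the paper's methods came from FastQC 0.11.9, Trimmomatic 0.39, HISAT2 2.1.0 on mm10 and HTSeq 0.10.0; the notes also list StringTie 1.3.5. Strand setting and annotation release are not given in the sources used here. Counts are reads without molecular identifiers, so that exact intervals (Clopper-Pearson for shares) cover counting error only. All 75 columns were matched to samples by name and 0 were unused. A WPRE row, which names no mouse gene and holds 0.0254% of counts, was left out.

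From the counts, edgeR 4.0.16 in R 4.3.3 gave TMM factors and the filter (filterByExpr, minimum count 10, by group). Other steps used python 3.11.15, numpy 2.4.6, pandas 2.3.3, scipy 1.17.1 and matplotlib 3.10.9. A gene was past 4-fold where the log2 ratio of group mean CPM exceeded 2 in size, with a floor of 3 counts per cell. Correlations used log2(CPM + 1). With 1 sample per group no test was run, and DESeq2 1.42.0 gave size factors only as an alternative. Fold computation was tested on simulated data. Exon lengths from GENCODE M21 gave TPM for 53699 genes, 407 through a synonym. Promoter sequences are RefSeq's on GRCm38.p6.

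The members and gene lists were chosen with earlier results of these data known. Named beside the members were genes of Notch receptors, ligands, fringes, other Hes family repressors and hair cell factors, genes of other lists past 4-fold, and the 3 genes most like each member. Markers, Rbpj, Nrarp and genes with a high rho were also named, some after their values were seen. A gene most like Hes1 and the result of a further marker list are not reported here.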

Additional observations from a re-analysis of the deposited data

How the results depend on the processing

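No paired analysis was possible because the replicate numbers of single cells only name cells and no test was run. No log2 ratio of a member changed direction past 4-fold under any alternative; of the recomputed log2 ratios 379 moved by less than the spread between cells and 33 moved further. The count of members past 4-fold was the least stable result where means of logs replaced the log of means, which weighs cells at 0 more. With the difference of mean log2(CPM + 1) it went from 4 to 1 for WT_P30 OHCs over WT_P60 SCs, from 4 to 2 for OHC-like cells over WT_P60 SCs, from 5 to 3 for failing SCs over WT_P60 SCs, from 6 to 3 for OHC-like cells over WT_P30 OHCs, from 2 to 1 for OHC-like cells over failing SCs and over nascent HCs, and from 0 to 1 for nascent HCs over failing SCs. The shares of all filtered genes past 4-fold on that scale were, in the same order, 31.0%, 26.8%, 15.7%, 37.1%, 17.5%, 3.22% and 14.9%. Over failing SCs the calls of Hey1 and Hey2 were lost (differences of -1.90 and -0.84) and the 1 member was Hes6, higher by 3.45 in OHC-like cells and by 4.34 in nascent HCs, while over nascent HCs Hey1 stayed and Hey2 was lost. With log2(CPM + 10) the 8 counts, in the order of WT_P30 OHCs, OHC-like cells, nascent HCs and failing SCs over WT_P60 SCs, then OHC-like cells over WT_P30 OHCs, over failing SCs and over nascent HCs, and last nascent HCs over failing SCs, were 1, 2, 2, 2, 2, 1, 0 and 1, the last 2 calls again being Hes6. Beside these 8 counts, the shares of all filtered genes were 12.1%, 9.03%, 8.30%, 3.97%, 10.7%, 4.63%, 0.12% and 3.13%. A fold of 2 gave 4 members for OHC-like cells and 3 for nascent HCs over failing SCs, beside 44.4% and 40.0% of all filtered genes. For the latter, summed counts gave 1 and leaving out OHC-like cell 4 and cells 2 and 4 of the failing SCs gave 1, which was Hes6. Leaving out each cell in turn gave 1 to 3 members for OHC-like cells over failing SCs and 0 to 1 for nascent HCs over them, by the cells named above. At a detection limit of 10 CPM, members seen in most nascent HCs went from 5 to 3. With log2(CPM + 10), an alternative added after the data were seen, as were leaving out the same 3 cells for levels, TPM shares and neighbors and leaving out each cell in turn for pathway genes, 1 rather than 2 neighboring pairs differed beyond their spread. The rho of Hes5 with Atoh1 was -0.034 on deviations from type means and -0.087 on deviations from series means, and that of Hes6 was -0.19 on the latter, while that of Heyl stayed between -0.48 and -0.32. Over all genes, the count past 4-fold was 3944, 3289, 3022, 2545, 3648, 2404, 959 and 1946 in the same order of comparisons, no filter multiplied it by 1.76 to 3.63, a fold of 2 by 1.65 to 3.01, and log2(CPM + 10) by 0.015 to 0.35. The share of higher calls was 75.6% for OHC-like cells over WT_P30 OHCs and 39.9% over nascent HCs, and with DESeq2's size factors 64.7% and 52.1%; these factors moved the median of all genes by -0.44 and 0.08, and by 0.37 for WT_P30 OHCs over WT_P60 SCs. With mean log2(CPM + 1) that share went from 38.5% to 22.5% for WT_P30 OHCs and from 67.1% to 53.4% for failing SCs over WT_P60 SCs, from 75.6% to 89.5% for OHC-like cells over WT_P30 OHCs, and from 53.2% to 74.1% for OHC-like cells and from 56.5% to 78.5% for nascent HCs over failing SCs. With log2(CPM + 10) the last 2 were 71.9% and 76.0%, failing SCs over WT_P60 SCs turned to 37.7%, and OHC-like cells over nascent HCs turned to 85.7% of 14 genes. With no filter it was 53.3% in place of 66.9% for nascent HCs over WT_P60 SCs, 63.7% for OHC-like cells over WT_P30 OHCs and 43.4% for nascent HCs over failing SCs. The number of cells limits what is known of members at 0: 0 of 17 cells allows a share of up to 19.5%, by counting error only.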
